A study of Malus domestica with 34 samples.

Results

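A set of 101 genes whose RNA was low in apple leaves after a first drought, and whose mean level in well-watered leaves was about the same at the third sampling as at the first, was followed through 34 RNA-seq libraries. These are 101 of 52311 gene identifiers in the series, or 0.193%. Each gene met 3 conditions on log2(CPM + 1), where CPM is the count divided by the library's total and scaled to a common total, and the value is called the log2 level here. The mean level in drought leaves lay at least 1.5 below that in well-watered leaves at the first sampling, the highest drought library lay below the lowest well-watered one, and the mean of the well-watered leaves moved by no more than 0.5 between the first and the third sampling. The 9 libraries of these 3 groups therefore chose the genes, and what they show is description and not a test.

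All plants were apple (Malus domestica) seedlings raised from seeds of GDDH18, the 'Golden Delicious' double haploid 18, in 1 greenhouse facility, and 12 weeks old when the watering regimes began. Control plants (64) stayed near 80% soil water content throughout, and multiple-drought plants (61) went through 3 cycles, each of 3 weeks at 45% of field capacity and 3 weeks of rewatering. Each regime gave leaf and root at 3 samplings: when the first drought ended, when the third ended, and in the next season, once a winter had passed and no new drought had begun. Of these 12 groups, 10 held 3 libraries, 1 from each of 3 blocks sown a week apart, and the next-year roots held 2 per regime. How many plants were combined in a library is not stated in the labels.

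When water runs short, leaves close their stomata, take up less carbon dioxide and slow the division and expansion of their cells, and the hormone abscisic acid carries much of the signal. Transcripts for growth, for photosynthesis and for making leaf compounds commonly decline in that state and return when water does. A leaf sample also mixes epidermis, mesophyll and veins, so fewer cells of a type and less RNA per cell cannot be told apart. The deposited table does not pair identifiers with gene names, and 0 of them matched RefSeq's gene table for the assembly GDT2T_hap1. Functions, positions and sequences are therefore not given, the tissue labels were not checked against marker genes, and only a few genes are named by identifier.

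Libraries held 25974815 to 68239819 counts. Over genes with a mean log2 level of at least 1, the mean correlation of a library with the others of its group ran from 0.93 to 0.99. The lowest was well-watered leaf of the third sampling, block 3, a library that the choice of genes used.

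At the first sampling the 101 genes took 0.367%, 0.286% and 0.453% of all counts in the well-watered leaves of blocks 1, 2 and 3, and 0.0876%, 0.0852% and 0.0890% in the drought leaves. The median gene stood at 15.3 CPM under full watering and at 2.90 CPM in drought. Levels in well-watered leaves ran from 2.63 to 392 CPM, with 65 genes at 10 CPM or more and 9 at 100 CPM or more. The 5 most abundant held 36.0% of the set's counts there. Most drops were near the limit that chose them. The median drop in log2 level was 1.78, 69 genes dropped by less than 2, 6 by at least 3 and 2 by at least 4. All 101 passed the filter on low counts in leaf. By edgeR's quasi-likelihood test 95 of them were lower in drought (adjusted p under 0.05) and 0 higher, against 6.67% and 5.13% of all 32307 genes tested, in the contrast that chose the genes.

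The most abundant gene, MD15G1216400, stood at 446, 307 and 423 CPM in the well-watered leaves of blocks 1, 2 and 3 and at 184, 68.0 and 124 CPM in the drought leaves. Its lowest well-watered library was above its highest drought library, as the rule required. The fitted log2 change was -1.69 (SE 0.37). The gene with the largest drop, MD12G1252200, stood at 212, 83.4 and 259 CPM with full watering and fell to 1.70, 10.2 and 0.385 CPM, a log2 change of -5.46 (SE 1.03). Block 2 had the smallest contrast, from the lowest well-watered and the highest drought value. At the third sampling MD12G1252200 was at 278, 275 and 289 CPM in drought leaves, and at 504, 61.0 and 83.3 CPM in well-watered leaves. The 3 drought libraries there were nearly equal, while the well-watered ones spread from below to above them.

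**Figure D1:**
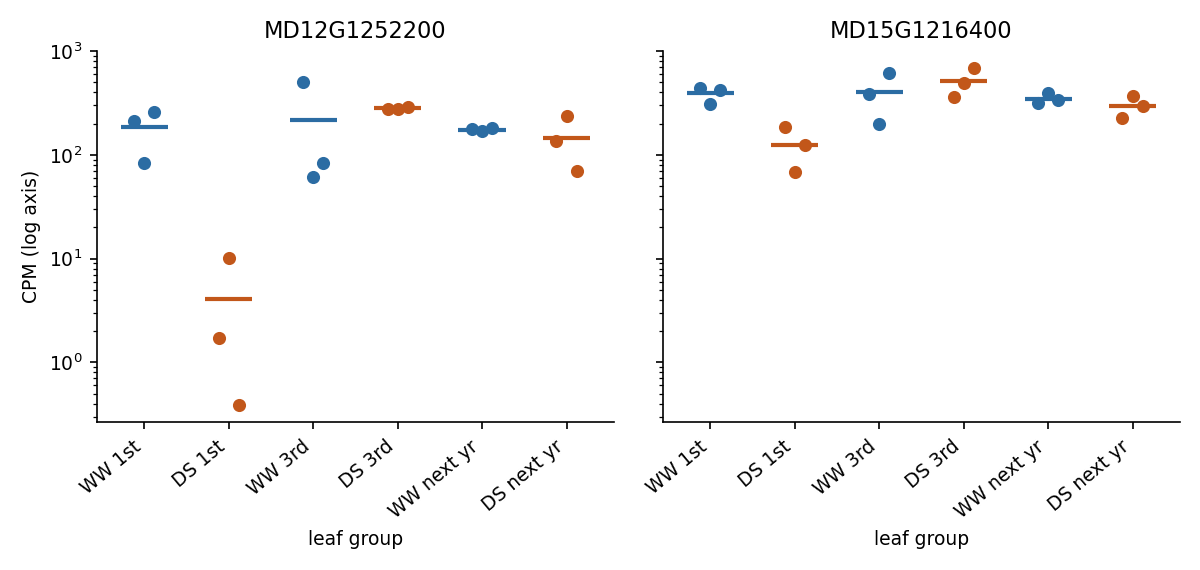
CPM on a log axis of MD12G1252200 (left) and MD15G1216400 (right) in each leaf library, by regime (WW well-watered, DS drought) and sampling, with bars at group means. In the drought leaves of the first sampling MD12G1252200 lies between 0.385 and 10.2 CPM, below every other leaf library.

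The set has no sharp border. The 3 smallest drops inside it were 1.51, 1.52 and 1.52, and the 3 largest outside were 1.49, 1.49 and 1.49. On the change in well-watered leaves from the first to the third sampling, the nearest genes inside had 0.49 and -0.50 and the nearest outside 0.53 and -0.50. Of 231 genes that met both conditions on the first drought, 101 fell inside the window, 104 below it and 26 above it. A further 2 met the drop and the window but had overlapping libraries.

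The drop was also measured with genes chosen anew, each time in the block left out of that choice. The rule was applied to 2 blocks and the drop was read in the third, 1 drought library against 1 well-watered library. With block 1 left out 63 genes were chosen, and the median change in block 1 was -1.82, with 63 of 63 lower in drought. With block 2 left out it was -1.41, with 152 of 152 lower, and with block 3 left out it was -1.87, with 113 of 113 lower. Over all genes with a log2 level of at least 1 in the well-watered libraries used, the medians were 0.07, -0.04 and -0.01 and the shares lower in drought 43.6%, 54.3% and 50.7%. A drop of 1.5 or more in the block left out was met by 74.6%, 40.8% and 69.9% of the chosen genes, against 1.30%, 1.29% and 1.26% of all genes. In these newly chosen genes the drop was thus also present in the block left out, with the smallest median in block 2. With blocks 1, 2 and 3 left out, 47, 78 and 51 of the chosen genes also belong to the set followed here. All leaf libraries of the first sampling chose that set, so its own drop was not tested by this split.

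The like mean of the well-watered leaves at the first and the third sampling did not hold block by block. The mean log2 level of the 101 genes in well-watered leaves was 4.08, 3.82 and 4.49 in blocks 1, 2 and 3 at the first sampling, and 4.85, 3.85 and 3.49 at the third. It was higher at the third sampling in block 1, nearly equal in block 2 and lower in block 3. In block 1 the median gene changed by 0.72, and 69 of 101 genes lay more than 0.5 higher; with TMM library sizes these were 0.21 and 34. In block 3 the median was -0.86, and 68 of 101 lay more than 0.5 lower; with TMM these were -1.06 and 80. In block 2 the median was -0.05, with 23 above and 28 below the window, and with TMM -0.13, with 21 and 35. Only 6 genes stayed within 0.5 in all 3 blocks.

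Part of these shifts was common to all genes and depended on the scaling. Over 25410 genes with a log2 level of at least 1 in first-sampling leaves under full watering, the median change was 0.36, -0.15 and 0.07 in blocks 1, 2 and 3 with column sums, and -0.14, -0.23 and -0.11 with TMM library sizes. Relative to it the 101 genes lay 0.36 higher in block 1, 0.11 higher in block 2 and 0.93 lower in block 3. With TMM these values were 0.35, 0.10 and -0.95. All of these libraries chose the genes, and the rule held the mean change within 0.5. Opposite shifts between blocks are therefore partly built in by the choice. In the genes chosen on 2 blocks, the change with age in the block left out stayed within 0.5 for 19.0%, 36.2% and 17.7%, below the 53.2%, 65.7% and 63.5% of all genes. With TMM these shares were 38.2%, 37.9% and 12.8%, against 60.6%, 61.0% and 62.1%. The 101 genes are therefore described by the rule that chose them and are not called stable with age.

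**Figure D2:**
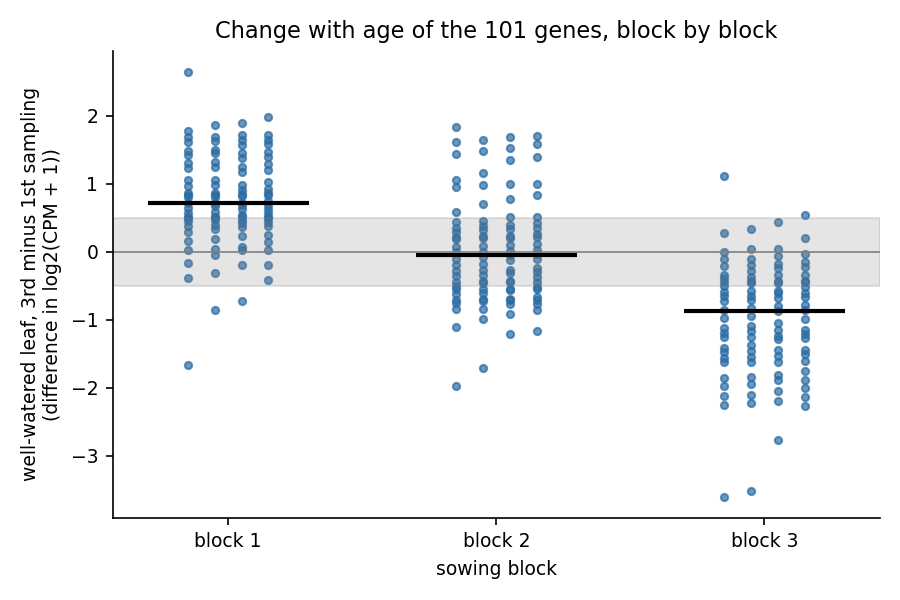
Difference in log2(CPM + 1) between the third and the first sampling in well-watered leaves, for each of the 101 genes (points) in each sowing block, with the median as a black bar and the window of 0.5 to either side shaded. Medians are 0.72 in block 1, -0.05 in block 2 and -0.86 in block 3.

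Across the 12 groups the mean level over the 101 genes was low in drought leaves at the first sampling and in no later leaf group. Single genes could differ from this mean. At the first sampling the mean log2 level was 4.13 ± 0.34 with full watering and 2.17 ± 0.07 in drought (SD of library means, n = 3 each). It was 4.06 ± 0.70 and 4.49 ± 0.10 at the third sampling, and 3.67 ± 0.06 and 3.66 ± 0.44 in the next year (n = 3 each). In order, drought leaves of the third sampling came first, then well-watered leaves of the first and the third, then both next-year groups, and last the drought leaves of the first sampling. The libraries of the first 3 of these groups overlapped, and so did those of the next-year groups. Drought-history leaves of the next year, at 3.27 to 4.14, also overlapped well-watered leaves of the first and the third sampling. The lowest libraries of those well-watered groups were at 3.82 and 3.49. Well-watered leaves of the next year, at 3.63 to 3.74, overlapped those of the third sampling. The summed level at the third sampling was 4675, 5359 and 5202 CPM in drought leaves and 5810, 2473 and 3183 CPM in well-watered leaves. In the drought leaves of the first sampling it was 876, 852 and 890 CPM.

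In drought leaves of the third sampling, 100 of 101 genes had every library above every drought library of the first, where 30.6% of all tested leaf genes did. In the next year the like count was 84 of 101 in well-watered plants, against 21.4% of all genes, and 75 of 101 in plants with a drought history, against 17.5%. These counts share the drought libraries that chose the genes, so nothing is read from them.

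**Figure D3:**
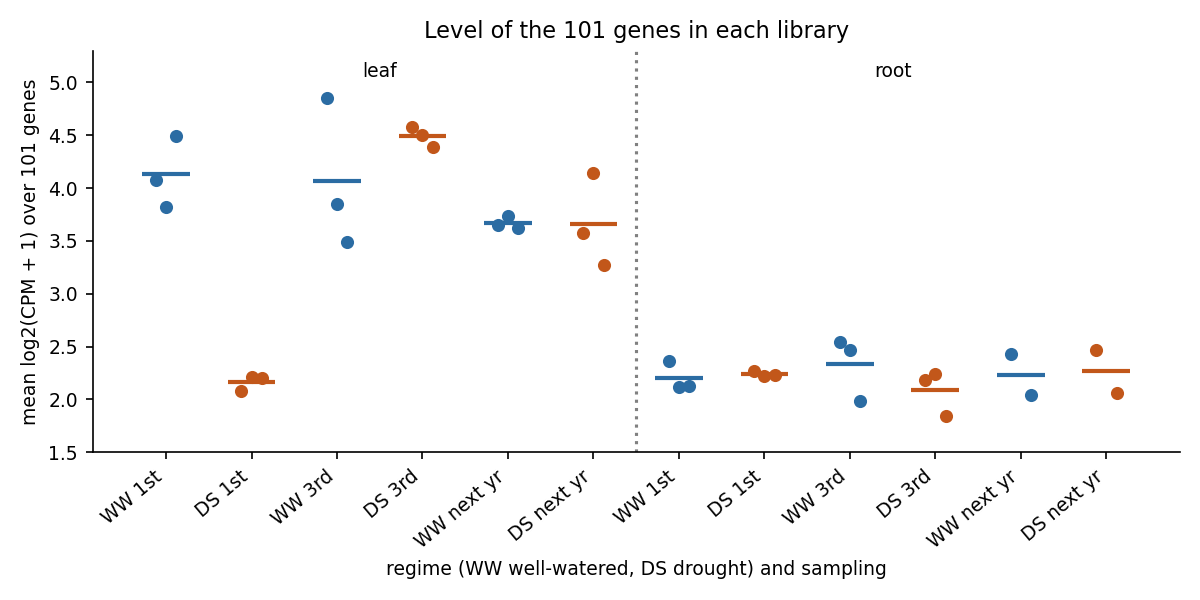
Mean log2(CPM + 1) over the 101 genes in each library (points) of the 12 groups, with bars at group means, for well-watered (WW) and drought (DS) plants. Drought leaves of the first sampling, at 2.08 to 2.21, lie below every other leaf library, the lowest of which is at 3.27.

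After the third drought, no lower level of these genes was detected in leaves of droughted plants. The mean log2 level was 4.58, 4.50 and 4.39 in the drought libraries of blocks 1, 2 and 3 and 4.85, 3.85 and 3.49 in the well-watered ones. Drought lay lower in block 1, by 0.27, and higher in blocks 2 and 3, by 0.65 and 0.90. No gene of the set passed edgeR's test (0 of 101), where 0% of all genes passed; DESeq2 also called 0, and 2 had an unadjusted p under 0.05 in edgeR, against 2.25% of all genes. No gene of the set (0) had drought libraries all above or all below the well-watered ones, where 2.68% and 0.854% of all genes did. The fitted log2 change had a median of 0.26 over the set and was above 0 for 79 of 101, against a median of 0.00 over all genes. The well-watered libraries here also set the window of the rule. The median was 0.57 without well-watered block 1, 0.16 without block 2 and 0.02 without block 3. Without well-watered block 1, 33 of 101 genes had an unadjusted p under 0.05 in edgeR, against 1488 of all 32663.

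In the next year, with leaf libraries that the choice of genes did not use, no difference between the regimes was detected. The mean log2 level was 3.65, 3.74 and 3.63 in well-watered plants and 3.57, 4.14 and 3.27 in plants with 3 earlier droughts. The well-watered values were nearly equal, and the drought values spread to either side of them. EdgeR called 0 of 101 genes and 0% of all genes, DESeq2 called 0 of the set and 1 of all genes, and 0 of the set had an unadjusted p under 0.05, against 1.10% of all genes. The fitted changes ran from -0.41 to 0.78 with a median of 0.03, and 57 of 101 were above 0. Groups were apart in 0 genes in either direction, against 3.72% above and 3.57% below among all genes. Without the drought library of block 2 the median was -0.21, with 85 of 101 below 0, and without the well-watered library of block 3 it was near 0, with 51 of 101 below. It was 0.12 without drought block 1, 0.16 without drought block 3 and 0.10 without well-watered block 2, with 68, 76 and 66 of 101 above 0.

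In plants with a drought history, most of these genes had a negative fitted change from the third drought to next-year leaves, and 12 of them passed the test as lower. The choice of genes used none of these 6 libraries. The median log2 change was -0.60, with 78 of 101 genes below 0, against a median of -0.04 over all genes. By edgeR's test those 12 (11.9%) were lower, against 6.31% of all genes, and 6 (5.94%) were higher, against 7.89%. An unadjusted p under 0.05 was found for 43, against 31.7% of all genes. All next-year libraries lay below all earlier ones in 56 genes and above them in 5, against 35.3% and 7.64% of all genes. These counts used CPM from column sums, while the fit used TMM scaling, so part of the 56 depends on the scaling. The mean log2 level went from 4.49 to 3.66 with column sums and from 4.41 to 3.88 with TMM library sizes. The genes named for the largest falls were scarce. MD04G1234700 stood at 10.4, 2.41 and 2.39 CPM after the third drought and at 0.454, 0.648 and 0.162 CPM in the next year. Its log2 change was -3.31 (SE 1.00, edgeR adjusted p = 0.0394). All next-year libraries lay below all earlier ones, though block 1 was far above the other earlier libraries. MD12G1027900 stood at 11.1, 3.07 and 8.62 CPM and then at 0.747, 1.20 and 0.323 CPM, a change of -3.06 (SE 0.84, edgeR adjusted p = 0.0263).

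The genes named for the largest rises were more abundant. MD12G1252500 stood at 360, 741 and 450 CPM after the third drought and at 869, 1140 and 931 CPM in the next year. Its log2 change was 1.22 (SE 0.27, edgeR adjusted p = 0.00897). MD04G1124100 stood at 18.7, 26.6 and 16.1 CPM and then at 49.0, 46.8 and 34.1 CPM, a change of 1.36 (SE 0.38, edgeR adjusted p = 0.0281). In neither gene did the years overlap. Single libraries moved the count of 18 called genes: it was 10 and 11 without blocks 1 and 3 of the third sampling, and 7, 28 and 6 without blocks 1, 2 and 3 of the next year. DESeq2 called 30. Calls of MD04G1234700, MD12G1027900, MD04G1124100 and MD12G1252500 were lost in 5, 4, 5 and 1 of their 11 alternatives, and the direction held in all of them.

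Root libraries, which the choice of genes did not use, parted the set into 46 leaf-predominant genes, with a mean log2 level under 1 over the 6 root groups, and 55 shared genes. The leaf-predominant genes summed to 6.40 to 11.2 CPM in the root groups and to 1922 CPM in well-watered leaves of the first sampling. Of these, 7 had 0 counts in all 16 root libraries, which allows a level of up to 0.00433 CPM each (a floor of 3 counts over all root libraries, covering counting error only). The shared genes summed to 2002 to 2848 CPM in the root groups and to 1764 CPM in those leaves. At the first drought the median drop was 1.94 in the leaf-predominant and 1.76 in the shared genes.

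**Figure D4:**
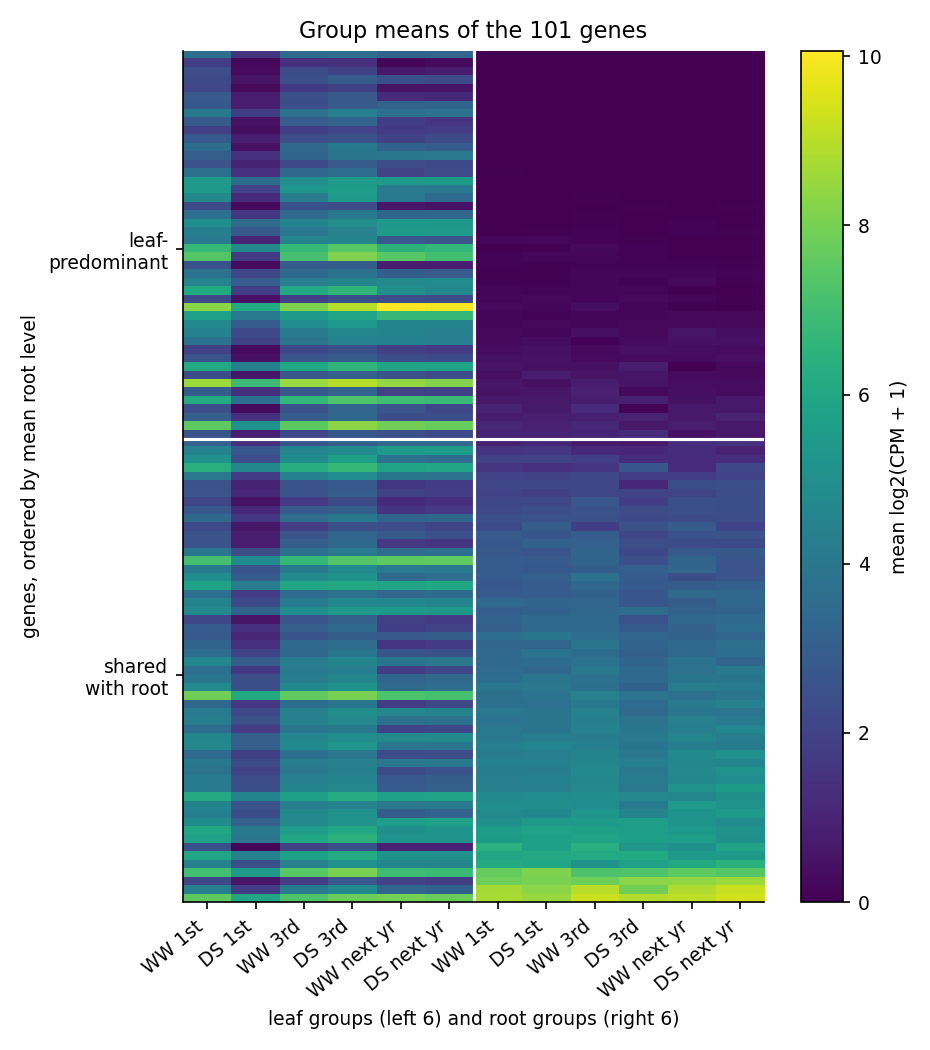
Mean log2(CPM + 1) of the 101 genes (rows, ordered by mean root level) in the 6 leaf and 6 root groups (columns; WW well-watered, DS drought). The horizontal line parts the 46 leaf-predominant from the 55 shared genes, and the second column, drought leaf of the first sampling, is the darkest leaf column.

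The leaf-root difference was tested in libraries outside the choice, although genes chosen for a fall in leaf must be present in leaf, so a count higher in leaf is in part fixed by the choice. In the next year 65 of 101 genes were higher in leaf and 17 lower (edgeR, adjusted p under 0.05), against 34.3% and 36.3% of all genes. In drought plants after the third drought 75 were higher and 4 lower, against 27.0% and 28.1%. The genes higher in leaf in both numbered 64, against 24.9% of all genes, and those lower in both 4, against 25.3%. All 46 leaf-predominant genes were higher in leaf in both. Low root levels, in these same root libraries among others, defined these 46 genes, so this is description and not a test. The median log2 difference of the 46 was 9.39 in the next year and 9.66 after the third drought. With genes whose root libraries were at 0 set to a bound from 3 counts over the group, it was 8.22 and 8.16. Among the 55 shared genes 19 were higher and 17 lower in the next year, and 29 and 4 after the third drought, with medians of -0.07 and 0.99.

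MD12G1252200 and MD12G1252500 are named for their fitted differences toward leaf in the next year. MD12G1252200 stood at 176, 171 and 180 CPM in well-watered and 135, 235 and 69.5 CPM in drought-history leaves and at 0 in all 4 root libraries, at least 10082-fold higher in leaf against a floor of 3 counts over the group. MD12G1252500 stood at 1027 ± 113 CPM in leaf (SD, n = 6) and 0.0221 ± 0.0325 CPM in root (n = 4). After the third drought the genes so named were MD01G1188800, at 42.9, 40.9 and 59.8 CPM in leaf, and MD09G1054000, at 36.6, 42.4 and 45.6 CPM, both with 0 counts in the 3 root libraries. That is at least 1815-fold and 1622-fold higher in leaf against the same kind of floor. A fitted difference from a root group at 0 depends on the fit's prior count, so these genes are not ranked above others such as MD12G1252500, at 517 ± 199 CPM in leaf and 0.113 ± 0.196 CPM in root (SD, n = 3 each).

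Some genes of the set were mainly root transcripts. MD07G1300900 stood at 2.82 ± 0.58 CPM in leaf (SD, n = 6) and 366 ± 70.4 CPM in root (n = 4) in the next year. The log2 difference was -6.64 (SE 0.41, edgeR adjusted p = 1.16e-13). MD04G1031300 stood at 8.41 ± 2.24 and 603 ± 347 CPM, a difference of -5.75 (SE 0.40, edgeR adjusted p = 1.96e-12). After the third drought MD07G1300900 was again lower in leaf, at 7.96, 6.18 and 3.39 CPM against 285, 320 and 343 CPM in root. MD05G1159700 was at 9.31, 4.42 and 1.92 CPM in leaf and 42.6, 103 and 11.1 CPM in root, a difference of -3.24 (SE 1.08, edgeR adjusted p = 0.0128), a call lost in 2 of its 11 alternatives. In all, 25 of 101 genes had a higher mean log2 level over the root groups than in well-watered leaves of the first sampling.

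**Figure D5:**
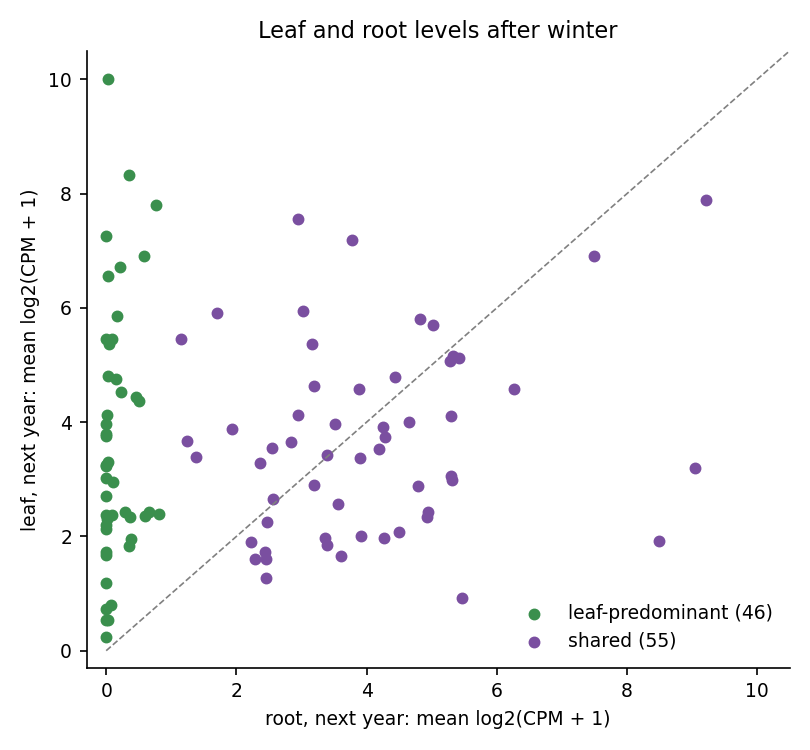
Mean log2(CPM + 1) of each of the 101 genes in next-year root (x axis) and next-year leaf (y axis), regimes averaged, with leaf-predominant genes in green and shared genes in purple; the dashed line marks equal levels. The 46 leaf-predominant genes stand along the left edge, and the shared genes lie on both sides of the line.

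In roots no gene of the set passed the test for drought at any sampling. The low-count filter kept 72 of the 101 genes, 17 leaf-predominant and all 55 shared, and edgeR did not test the others in root. DESeq2, run without that filter, tested 94 of the 101. After the first drought the mean log2 level over the 101 was 2.26, 2.22 and 2.23 in drought and 2.36, 2.11 and 2.13 in well-watered roots, and the groups overlapped. EdgeR and DESeq2 called 0 genes of the set and 0% of all genes, and in edgeR 0 of 72 had an unadjusted p under 0.05, against 1.01% of all genes. The median log2 change of the 72 was -0.13, and 0.11 without well-watered block 1.

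After the third drought the mean level was 2.18, 2.24 and 1.84 in drought roots of blocks 1, 2 and 3 and 2.54, 2.47 and 1.99 in well-watered roots. Drought was lower in each block, by 0.36, 0.23 and 0.14, while the groups overlapped. Of the 72 genes 55 had a log2 change below 0, with a median of -0.55, against 0.00 over all genes. EdgeR called 0 of them, against 0% of all genes, DESeq2 called 0 of 94 and 1 of all genes, and in edgeR 11 of 72 (15.3%) had an unadjusted p under 0.05, against 2.79%. Of these 11, 10 were lower in drought. The 11 became 17 with the sowing block in the fit, 4 without well-watered block 1 or drought block 3, and 28 without well-watered block 3. Drought libraries lay all below the well-watered ones in 8 of 72 genes and all above in 4, against 3.08% and 3.36% of all genes. The shared genes had a median of -0.62 and the 17 leaf-predominant genes of 0.01. Without well-watered block 1 the median of the 72 was -0.30, without drought block 3 it was -0.26, and it stayed below 0 whichever library was left out. MD04G1031300, a shared gene, stood at 322, 363 and 112 CPM in drought and at 915, 469 and 304 CPM in well-watered roots, with overlap between the groups.

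In next-year roots the mean level was 2.47 and 2.06 in drought-history plants (blocks 1 and 3) and 2.43 and 2.04 in well-watered plants (blocks 2 and 3). EdgeR called 0 of 72, against 0% of all genes, DESeq2 called 0 of 94 and 2 of all genes, and in edgeR 1 had an unadjusted p under 0.05, against 2.20% of all genes. The median log2 change was 0.20, and leaving out 1 library gave between -0.16 and 0.84, so 2 libraries per regime did not fix its sign. The regimes there share only block 3. In block 3 the levels were 2.06 and 2.04.

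Between the first and the third sampling in well-watered roots edgeR called 0 of 72 genes, against 0% of all genes, and DESeq2 called 0 of 94, against 24 of all 41968. The median was 0.36, with 58 of 72 (80.6%) above 0, against 49.9% of all genes, and 3 genes had an unadjusted p under 0.05, against 5.58%. Without block 3 of the third sampling that count was 17, without block 1 of the first it was 11, and the median ran from 0.20 to 0.51 when a library was left out. From the third sampling to the next year, regimes averaged, 1 gene fell and 1 rose, against 1.10% and 1.30% of all genes, and 15 of 72 had an unadjusted p under 0.05, against 19.3%. MD05G1087300 stood at 61.9, 66.8 and 81.5 CPM in well-watered and 72.6, 60.9 and 77.9 CPM in drought roots of the third sampling. In the next year it stood at 46.8 and 38.2 CPM in well-watered and 39.0 and 44.6 CPM in drought-history roots. Its log2 change was -0.69 (SE 0.13, edgeR adjusted p = 0.0213). The years did not overlap, and the call was lost in 4 of 15 alternatives. The gene that rose, MD00G1085100, was named after its values were seen; its change was 0.91 (SE 0.21, edgeR adjusted p = 0.0413), and its libraries overlapped. With the sowing block in the fit 5 genes were called, with DESeq2 7, and leaving out 1 library gave 0 to 3, with 0 without drought block 1 of either sampling.

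Within several groups 1 library was the highest or the lowest for most of the genes, more often than among all genes. In drought-history leaves of the next year block 2 was the highest library for 85 of 95 genes with a mean log2 level of at least 1 there, against 44.8% of all such genes. In well-watered leaves of the third sampling block 1 was the highest for 89 of 101, against 50.2%, in libraries that the choice of genes used. In next-year roots block 2 was above block 3 for 50 of 55 genes in well-watered plants, against 46.8%, and block 1 above block 3 for 49 of 54 in drought-history plants, against 62.5%. Block 3 was also the lowest root library of the third sampling for 42 of 57 genes in well-watered and 42 of 56 in drought plants, against 44.6% and 33.6%. The median SD between libraries was 0.45 for the set and 0.18 for all genes in drought-history leaves of the next year, and 0.17 and 0.14 in well-watered ones. What sets these libraries apart was not tested.

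Identifiers of the set carried all 18 number prefixes in the table, with 2 to 10 genes each. A small number, 11 genes in 6 pairs, stood within 3 places of another member in the identifier order. MD12G1252200 and MD12G1252500 form such a pair, yet they fell to different extents at the first drought, with drops of 5.59 and 2.11 in log2 level. Whether the genes of a pair are near-identical in sequence could not be checked. Where they are, shared reads are divided by estimation, and levels within the pair are uncertain.

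A pair of sets made by mirrored rules on the same libraries were set beside the 101 genes. The 104 genes that were repressed alike but lay lower in well-watered leaves of the third sampling had a median log2 change of 0.10 in leaf between the end of the third drought and the next year, where the 101 had -0.60. The 31 genes induced by the first drought with a like mean in well-watered leaves also had 0.10. In roots after the third drought the medians were -0.55 for the 101, -0.40 for the 104 and 0.20 for the 31. These differences between sets were not tested, since the sets were chosen on these data.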

How the data were processed

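The authors deposited 1 table of estimated counts per gene identifier, already whole numbers, for 34 libraries; per the labels' protocols these were stranded mRNA libraries read as 100 bp pairs. The submitters' processing notes name FastQC, Salmon, DESeq and DESeq2 without versions; build, annotation and settings are not given in the sources used here. Salmon divides reads among similar transcripts, so near-identical copies are uncertain. CPM used column sums, and log2 levels a pseudocount of 1. The members and all lists were chosen with earlier results of these data known.

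Counts were tested with edgeR 4.0.16 in R 4.3.3 (TMM, filterByExpr, glmQLFit with robust dispersions, glmQLFTest), all groups of a tissue in a fit and all 34 libraries in the leaf-root fit, with Benjamini-Hochberg adjustment over all genes tested and 0.05 as the threshold. SE is the size of the log2 change divided by the square root of F. Alternatives were RLE scaling, no filter, DESeq2 1.42.0, the sowing block, the compared groups alone, each library left out, and for the choice of genes other pseudocounts, a window of 0.25 and TMM sizes. The steps were run on simulated data with known changes. Those data were drawn independently for each library, without block effects or shifts shared by many genes. They check the working of the steps only.

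Per the labels the replicate number marks the sowing block, so same-numbered libraries were taken as paired. The main fit has no block. The correlation of deviations between same-numbered libraries of both regimes ran from 0.24 to 0.77 in leaf and from 0.30 to 0.78 in root after the third drought. In root after the first drought it ran from -0.82 to -0.30. The counts thus did not show the pairing there, and block numbers of those roots rest on the label alone. No 2 libraries of a group agreed within sampling noise (lowest chi-square per gene 25.9 over 32 pairs).

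Genes named for the first drought are the most abundant and the one with the largest drop. Elsewhere they are the 2 largest changes in each direction among members with adjusted p under 0.05, groups that do not overlap and an average log2 CPM no lower than 1. Planned gene lists and markers needed names and could not be run.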

Additional observations from a re-analysis of the deposited data

Results flagged for a closer look

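Groups of 2 or 3 libraries are too small for a check of single outlying libraries. For 2 of the genes named above the drought effect had opposite signs in all 3 sowing blocks of different samplings or tissues, and these differences were not tested. MD04G1031300 changed by a mean of -2.56 in log2 level with drought in leaf at the first sampling, which chose it, by 0.63 in leaf at the third and by -1.10 in root at the third. MD05G1087300 changed by -1.53 in leaf, which chose it, and by 0.18 in root at the first sampling. The rule fixed the fall in leaf at the first sampling in every block, so that side of each contrast was set in advance. In root there, deviations of same-numbered libraries of both regimes correlated negatively, from -0.82 to -0.30. The root groups of MD05G1087300 also overlapped, so nothing is read from its signs by block.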

How the results depend on the processing

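The number of genes chosen was 136 with a pseudocount of 0.5, 65 with a pseudocount of 2 and 57 with a window of 0.25. These held 96, 61 and 57 of the 101 genes. When a library was left out 77 to 156 genes were chosen, which held 57 to 97 of the 101. With TMM library sizes it was 94, of which 70 were among the 101. The 18 leaf calls between the third drought and the next year became 30 with DESeq2 and 6 to 28 with a library left out. The 2 calls in root over the same time became 5 with the replicate block, 0 with the compared groups alone, 7 with DESeq2 and 0 to 3 with a library left out. The replicate block changed no other call by more than 1.5 times. With a library left out, the median log2 change ran from -0.25 to 0.11 in root after the first drought and from -0.16 to 0.84 in root in the next year. It ran from 2.86 to 3.45 for leaf against root in the next year and from 3.32 to 3.87 after the third drought. The median in place of the mean log2 level gave, at the first sampling, 1.83 in drought leaf, 1.85 in well-watered root and 1.90 in drought root. It gave 4.35 in drought leaf, 1.92 in well-watered root and 1.70 in drought root at the third, and 3.32 in well-watered leaf, 1.84 in well-watered root and 1.90 in drought-history root in the next year. TMM library sizes gave 2.33 in drought leaf and 2.07 in drought root at the first sampling and 3.90 in well-watered leaf in the next year. With these sizes, drought leaves of the third sampling and well-watered leaves of the first were level, at 4.41 and 4.40. Of the checks on named genes 162 kept the call, 23 lost it and none reversed. The cause of these shifts was not tested. The change with age by block with TMM sizes was chosen after seeing the data. Scarce genes and the next-year roots, with 2 libraries per regime, limit what could be called.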
